A study of Mus musculus with 32 samples.

Results

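The genes described here are the transcripts of the mouse mitochondrial genome, taken as every gene of the count table whose symbol starts with mt-. There are 37 of them among the 54532 genes counted, namely 13 protein-coding genes, 2 ribosomal RNA (rRNA) genes and 22 transfer RNA (tRNA) genes. Kidney RNA from 32 wild-type C57BL/6 mice, an inbred laboratory strain, was sequenced in a time course of acute kidney injury after cisplatin, a platinum drug against tumours that damages kidney tubules. Each of the 8 groups held 4 mice aged 6 to 8 weeks, split by sex and by time: Day 0, and Day 2, 3 or 5 following 1 intraperitoneal injection of cisplatin at 20 mg/kg. The Day 0 males carry no treatment in the sample labels, the Day 0 females carry cisplatin, and the study calls Day 0 mice healthy. Each library is the RNA of 1 mouse.

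The mitochondrial genome is a small circle that is read from both strands as long transcripts, which are then cut into single RNAs, with many of the tRNAs marking the places of the cuts. Its mRNAs encode core subunits of the respiratory chain: mt-Nd1 to mt-Nd6 and mt-Nd4l belong to complex I, mt-Cytb to complex III, mt-Co1 to mt-Co3 to complex IV and mt-Atp6 and mt-Atp8 to the ATP synthase. The rRNAs mt-Rnr1 and mt-Rnr2 form the cores of the small and large subunits of the mitochondrial ribosome, and the tRNAs serve translation on it. The tubules of the kidney, above all the proximal tubule, are rich in mitochondria, and all proteins that copy, cut and degrade these RNAs are encoded in the nucleus. By the deposited coordinates 9 genes lie on the - strand of chromosome MT, namely mt-Nd6 and 8 tRNA genes, and the others on the + strand.

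The libraries held between 16502107 and 35961325 counts, so that the widest 95% Wilson interval of a library's mt- share reached 0.0218 percentage points to either side, which covers counting error only. The counts left for all other genes ranged from 3780528 in male Day 5 mouse 3 to 34345113. Other genes with at least 10 counts numbered 13673 to 14116 in male Day 5 mice 2, 3 and 4, and 14249 for mouse 2 of the Day 5 females, against 15139 to 17564 in the remaining libraries. The 8 kidney markers (Slc34a1, Lrp2, Cubn, Umod, Slc12a1, Slc12a3, Aqp2 and Nphs1) were detected in every group. Xist, which is transcribed in female cells, had 4153 counts in the library labelled male Day 5 mouse 1 and at most 260 in the other male libraries, while 4 Y-linked genes had 34.1 CPM there (counts scaled to a total of 1000000, here of non-mt- counts) and 103 to 144 in the other male Day 5 libraries. In CPM on that scale Xist stood at 366, 59.9, 23.5 and 12.5 in male Day 5 mice 1 to 4. It reached at most 18.3 in Day 0 males and 0.299 in Day 2 and Day 3 males, against 65.8 to 515 in females. The female Day 0 libraries held between 5 and 221 counts of those Y-linked genes and the other female libraries 0. Of the Day 0 libraries, male mouse 3 and female mouse 3 had 37.2 and 46.9 CPM of the nuclear RNA Malat1 when only non-mt- counts were summed, against 232 to 667 in the other 6, and female mouse 2 had 7384 of the liver gene Alb on that scale. In bulk kidney RNA, fewer cells of a type and less RNA per cell cannot be told apart, and neither can more mitochondrial RNA and less of all other RNA.

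The tRNA genes differed widely in their counts, and 3 of their sequences are shown because they mark the extremes. mt-Tp, for proline, and mt-Te, for glutamate, took the most counts of the 22 tRNA genes and lie on the - strand, while mt-Tf, for phenylalanine, is the first gene of the circle and had 0 counts in all 32 libraries. They lie at MT:15356-15422, MT:14071-14139 and MT:1-68 of GRCm38 and are given as DNA from 5' to 3' on the strand of each gene.
mt-Tp: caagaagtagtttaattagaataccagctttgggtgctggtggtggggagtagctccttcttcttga
mt-Te: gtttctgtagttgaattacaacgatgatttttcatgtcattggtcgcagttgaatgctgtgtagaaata
mt-Tf: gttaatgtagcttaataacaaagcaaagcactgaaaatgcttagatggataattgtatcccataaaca
These genes are 67, 69 and 68 bases long, all shorter than the 150-base reads. mt-Tp had between 2087 and 28227 counts per library. Of the 5 tRNA genes with the most counts (mt-Tp, mt-Te, mt-Tc, mt-Tl2 and mt-Tn), 4 lie on the - strand, which holds 8 of the 22. Whether counting used the strand of a read is not given in the sources used here, so that reads of a - strand gene and of a transcript running across it on the other strand cannot be told apart.

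Of these genes 28 had enough counts to be tested in all 15 comparisons, and 33 in at least 1. All mRNAs and both rRNAs were among the 28, with 13 tRNAs. Another 5 tRNAs were tested in some comparisons. The remaining 4 were tested in none: besides mt-Tf these are mt-Td, at 0 in 27 libraries, and mt-Tg and mt-Tk, at 0 in 15 each.

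Levels were compared between genes on the deposited FPKM, which divide counts by gene length. In male Day 3 mice, the group with the smallest spread, mt-Co1 had the highest level at 22946 ± 1068 FPKM (SD, n = 4). It was followed by mt-Cytb at 12608 ± 1340 and mt-Nd1 at 11702 ± 379, which did not differ beyond their spread, and by mt-Nd2 at 7904 ± 709. mt-Nd6, mt-Nd5 and mt-Nd4 came next at 6105 ± 477, 5561 ± 306 and 4794 ± 485, with overlapping ranges between neighbours. A lower group was led by mt-Atp6 at 1057 ± 359, with mt-Co2 at 960 ± 405, mt-Rnr1 at 876 ± 118, mt-Rnr2 at 829 ± 86.2, mt-Co3 at 702 ± 177 and mt-Nd4l at 358 ± 184, each overlapping the next. mt-Nd3 at 36.6 ± 24.5 and mt-Atp8 at 27.7 ± 17.9 had the lowest levels of the 15 mRNAs and rRNAs. In this order the ranges over the 4 mice did not overlap in 5 of 14 neighbouring pairs. These were mt-Co1 over mt-Cytb, mt-Nd1 over mt-Nd2, mt-Nd2 over mt-Nd6, mt-Nd4 over mt-Atp6 and mt-Nd4l over mt-Nd3. Such ranges include differences between libraries in the level of all mt- genes, and genes were not compared within a mouse. By its mean mt-Co1 led in 7 of the 8 groups and mt-Nd6 in female Day 0 mice. At Day 0 and at Day 5 the range of the leading gene overlapped that of the next gene in both sexes. The highest mean was 828 to 2678 times the lowest. In male Day 5 mice mt-Co1 stood at 471675 ± 239455 FPKM (SD, n = 4), and the ranges over mice overlapped in all 14 neighbouring pairs.

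**Figure D1:**
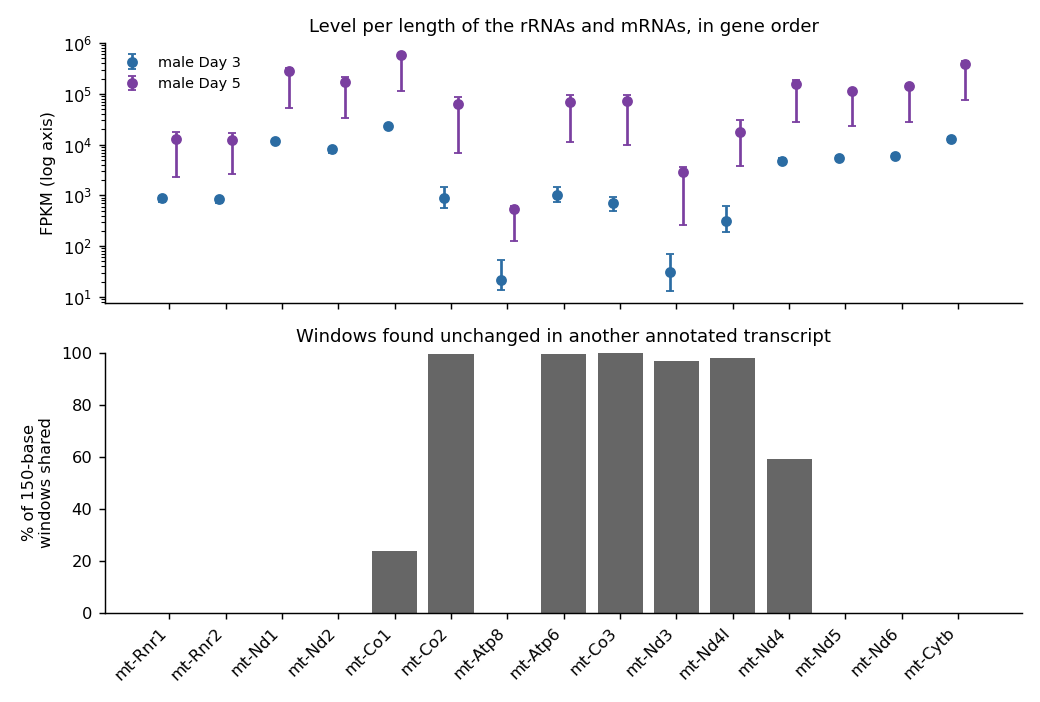
Deposited FPKM of the rRNAs and mRNAs in gene order in male Day 3 and male Day 5 mice (upper panel, log axis; point: median, whiskers: lowest and highest of 4 mice), and the percentage of each gene's 150-base windows that occur unchanged in another annotated transcript (lower panel). The 5 genes with more than 95% of windows shared, mt-Co2, mt-Atp6, mt-Co3, mt-Nd3 and mt-Nd4l, have levels below those of mt-Nd1 and mt-Nd2, which share none. mt-Atp8 is low without a window shared with an annotated transcript. Sequence outside annotated transcripts was not searched.

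Parts of the mitochondrial genome have near-identical copies in the nucleus, and a read that fits both places can be lost from counting or split. Every window of 150 bases of the mt- transcripts was searched in 141730 other annotated transcripts (GENCODE, GRCm38). A copy on the - strand of chromosome 1 between 24611535 and 24616197 holds 7 annotated pseudogenes. For mt-Co3 634 of 635 windows (99.8%) occurred unchanged in Gm28437, for mt-Co2 532 of 535 (99.4%) in Gm28661, for mt-Atp6 529 of 532 (99.4%) in Gm10925, for mt-Nd4l 145 of 148 (98.0%) in Gm10222 and for mt-Nd3 193 of 199 (97.0%) in Gm28438. mt-Nd4 shared 727 of 1229 windows (59.2%) with Gm28439, and mt-Co1 330 of 1396 (23.6%) with Gm29216. mt-Rnr1, mt-Rnr2, mt-Nd1, mt-Nd2, mt-Nd5, mt-Nd6, mt-Cytb and mt-Atp8 shared none. The search covered annotated transcripts only, and unannotated stretches of the chromosome 1 copy were not searched. mt-Atp8 lies between mt-Co2 and mt-Atp6, and the tRNAs mt-Ts1, mt-Td, mt-Tk, mt-Tg and mt-Tr also lie between mt-Co1 and mt-Nd4. The levels and changes of mt-Co2, mt-Atp6, mt-Co3, mt-Nd3 and mt-Nd4l, and those of mt-Atp8 and these tRNAs, are therefore uncertain. The treatment of reads with several matches is not given in the sources used here.

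A stretch of mt-Co1 at MT:6498-6587 shows how close such copies are, beside the pseudogene of the chromosome 1 copy at 1:24615991-24616080 (- strand) and a more distant copy, Gm13340, at 2:22588388-22588477 (- strand). Capitals mark bases that differ from mt-Co1.
mt-Co1: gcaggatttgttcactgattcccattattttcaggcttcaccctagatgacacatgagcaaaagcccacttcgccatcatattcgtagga
Gm29216: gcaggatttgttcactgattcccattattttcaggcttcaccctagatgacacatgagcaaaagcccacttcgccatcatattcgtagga
Gm13340: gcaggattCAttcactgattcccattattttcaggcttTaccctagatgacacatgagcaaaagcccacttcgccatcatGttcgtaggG
Gm29216 has 0 differences over these 90 bases and Gm13340 has 5. The median ratio of pseudogene counts to counts of the mt- gene over the 32 libraries was 6.03 for mt-Nd3, 0.649 for mt-Co2, 0.377 for mt-Nd4l, 0.303 for mt-Atp6 and 0.272 for mt-Co3. It was 0.00901 for mt-Nd4 and 0.00407 for mt-Co1. The 7 pseudogenes together took between 0.0395% and 0.591% of all counts outside Day 5. At Day 5 they took 0.697%, 2.02%, 1.80% and 2.62% in male mice 1 to 4, and 0.584%, 1.37%, 0.299% and 0.0721% in female mice 1 to 4, so that the 4 male Day 5 libraries and female Day 5 mouse 2 were above all others. Female Day 0 mouse 2, which had the lowest mt- share of all libraries at 4.49%, held 0.591%.

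The mt- genes took 70.2% of all counts in male Day 5 mice on average, against 12.7% at Day 0, 11.9% at Day 2 and 12.01% at Day 3. Male Day 5 mice 2, 3 and 4 stood at 78.9%, 79.8% and 79.7% and mouse 1 at 42.5%, all above the highest other male library at 24.0%. The mean difference was 57.5 percentage points from Day 0 and 58.2 from Day 3, and it lay between 54.3 and 66.7 and between 55.0 and 67.4 when single mice were left out. With the 7 pseudogenes added to the sum, a choice made after the values were seen, male Day 5 mice held 43.2%, 80.9%, 81.6% and 82.3%, and the difference from Day 0 was 59.1 points. In female Day 5 mice the shares were 31.6%, 77.9%, 22.2% and 9.30%, and they overlapped those of Day 0 (4.49% to 19.7%) and Day 3 (9.24% to 10.5%). The female difference from Day 0 was 25.02 points, and 10.8 points without female Day 5 mouse 2; that from Day 3 was 25.3 points, and 11.1 without that mouse. At Day 2 and Day 3 the means of both sexes lay 0.323 to 1.07 points below Day 0, and leaving out single mice turned the sign of all 4 differences, over a range from -2.98 to 3.04 points.

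**Figure D2:**
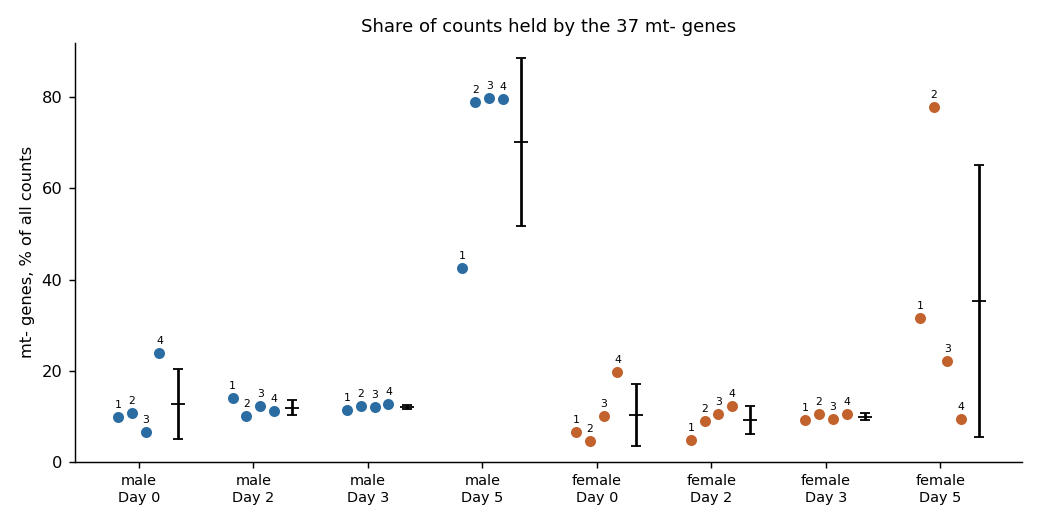
Percentage of all counts held by the 37 mt- genes in each library (points, numbered by mouse), with the mean and SD of each group of 4 (bars). Male Day 5 mice stand at 42.5% to 79.8%, above all other male libraries, and female Day 5 mice spread from 9.30% to 77.9%.

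Summed by kind of RNA, the make-up of the mt- total spread over few percentage points, while single genes such as mt-Co1 (5.76% to 49.98%) and mt-Nd6 (2.25% to 28.3%) varied widely. The mRNAs held 94.9% to 98.6% of the mt- counts in the 32 libraries, the rRNAs 1.10% to 4.63% (median 2.00%) and the tRNAs 0.208% to 0.561% (median 0.317%). The 7 mRNAs mt-Co1, mt-Cytb, mt-Nd1, mt-Nd2, mt-Nd4, mt-Nd5 and mt-Nd6 made up 88.9% to 96.6% of the mt- total. The 5 mRNAs that share nearly all windows with the chromosome 1 copy held 4.51% to 7.74% in male Day 5 mice, against 1.75% to 2.33% at Day 0 and 1.69% to 2.57% at Day 3, so that these ranges did not overlap. In females they held 1.03% to 5.16% at Day 5, 1.16% to 5.99% at Day 0 and 1.30% to 2.83% at Day 3, with overlapping ranges.

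**Figure D3:**
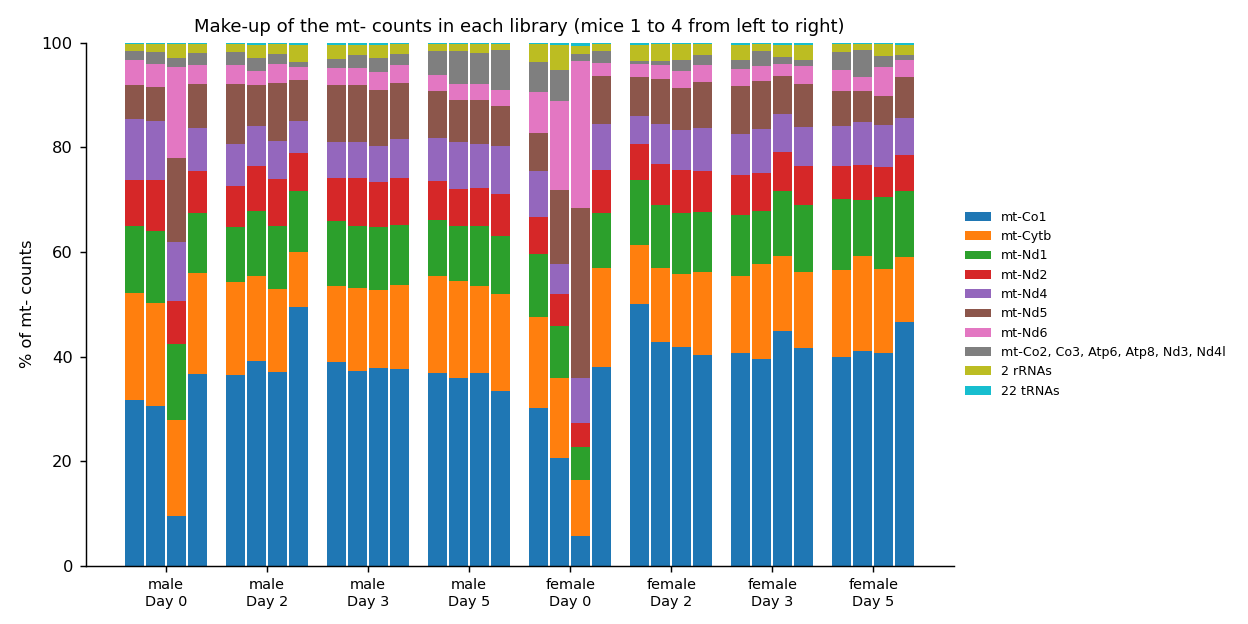
Make-up of the mt- counts of each library (stacked bars, percent of mt- counts, mice 1 to 4 of each group from left to right). mt-Co1 holds 33.4% to 49.98% in every library after Day 0, and male Day 0 mouse 3 and female Day 0 mouse 3 stand apart with 9.50% and 5.76%.

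Day 5 was compared with Day 0 in males to ask how far transcription had returned towards its state before injection. Of the 31 mt- genes tested, 29 rose, against 7.53% of all genes tested that changed in either direction and 3.83% that rose (edgeR quasi-likelihood test, Benjamini-Hochberg adjusted p under 0.05 over all genes and an absolute log2 fold change over 1.5). Their median log2 fold change was 3.92, against 0.04 for all genes tested. Against Day 3 all 32 mt- genes tested rose (background 9.64% in either direction and 6.39% higher), with a median of 4.24 and a range from 3.35 for mt-Tv to 6.48 for mt-Co3. In CPM of all counts, 28 of these 31 genes were higher in every Day 5 male than in every Day 0 male (0.868% of all genes tested were), and 31 of the 32 than in every Day 3 male (1.34%). These fold changes are relative to the bulk of the other genes. With total counts as the scale, the median of all genes moved to -1.14 and that of the mt- genes to 2.38 against Day 0, with 28 called, and to -1.48 and 2.34 against Day 3, with 32 called; 83 genes of the whole table then rose and 3976 fell against Day 0, instead of 574 and 553. Leaving out single mice gave 22 to 32 and 32 to 33 mt- genes, and without male Day 5 mouse 1, whose Xist counts go against its label, 29 rose against Day 0.

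Of complex IV, mt-Co1, its catalytic subunit, had 30989, 32546, 6133 and 88013 CPM in male Day 0 mice 1 to 4 and 156782, 283117, 293746 and 266302 in male Day 5 mice. Every Day 5 mouse was above every Day 0 mouse. At Day 0 mouse 3 lay far below and mouse 4 far above the others, and at Day 5 mouse 1 lay far below the other 3. The log2 fold change was 4.29 (SE 1.02, edgeR adjusted p = 0.0213) against Day 0 and 4.36 (SE 0.708, edgeR adjusted p = 0.00361) against Day 3. mt-Co3, another core subunit, had 399, 753, 392 and 1311 CPM at Day 0 and 6988, 20678, 14928 and 22027 at Day 5. The groups were separate, and its log2 fold change of 6.15 (SE 0.900, edgeR adjusted p = 0.00614) was followed by 5.05 for mt-Co2 (SE 0.932, edgeR adjusted p = 0.0116). Both share nearly all windows with the chromosome 1 copy.

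Of complex I, mt-Nd1, mt-Nd2, mt-Nd4 and mt-Nd5 rose by log2 fold changes of 3.87 to 3.94 between Day 0 and Day 5 in males. mt-Nd6, the 1 mRNA of the - strand, had 4556, 4757, 11192 and 8527 CPM at Day 0 and 13240, 23233, 23522 and 23786 at Day 5. All Day 5 mice were above all Day 0 mice, and the log2 fold change was 3.05 (SE 0.718, edgeR adjusted p = 0.0208), the lowest among the mRNAs. Against Day 3, where mt-Nd6 ranged from 3741 to 4377 CPM, it was 4.27 (SE 0.590, edgeR adjusted p = 0.00256). mt-Nd4l had 15.9, 10.4, 1.85 and 208 CPM at Day 0, where mouse 4 stood far above the others, and 1018, 1283, 2123 and 2631 at Day 5. Its log2 fold change was 6.52 with an SE of 1.51 (edgeR adjusted p = 0.0197). It was 9.26 without male Day 0 mouse 4, and its call was lost without any 1 of male Day 0 mice 1 and 2 and male Day 5 mice 2, 3 and 4. That of mt-Nd3 was 5.81 (SE 0.814, edgeR adjusted p = 0.00542). For mt-Nd3 and mt-Nd4l the shared windows apply as above.

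mt-Cytb, the subunit of complex III, rose by 3.96 against Day 0 (SE 0.831, edgeR adjusted p = 0.0149) and by 4.68 against Day 3 (SE 0.687, edgeR adjusted p = 0.00281). Of the ATP synthase, mt-Atp8 shares no window of 150 bases with another annotated transcript and is among the lowest mRNAs. It had 2.18, 1.71, 1.17 and 2.65 CPM at Day 0, 3.56, 13.9, 6.44 and 4.99 at Day 3 and 23.2, 28.2, 40.5 and 36.5 at Day 5. The 3 days did not overlap. Its log2 fold change from Day 0 to Day 5 was 5.64 (SE 0.529, edgeR adjusted p = 0.00204), beside 5.82 for mt-Atp6 (SE 0.898, edgeR adjusted p = 0.00722).

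The rRNAs and tRNAs rose with the mRNAs. mt-Rnr1 had 594, 785, 753 and 1711 CPM in male Day 0 mice and 2016, 4015, 5461 and 3564 at Day 5, with separate groups and a log2 fold change of 3.56 (SE 0.694, edgeR adjusted p = 0.0130). That of mt-Rnr2 was 3.81 (SE 0.745, edgeR adjusted p = 0.0131). Of the 22 tRNAs, 16 were tested against Day 0 and 14 rose, with log2 fold changes from 2.83 to 4.82 and a median of 3.78 over the 16. mt-Tw, mt-Tl1, mt-Tl2, mt-Ty and mt-Te, for tryptophan, leucine (both mt-Tl1 and mt-Tl2), tyrosine and glutamate, rose by 4.82, 4.78, 4.73, 4.37 and 4.32. mt-Tc, mt-Ti, mt-Th, mt-Tm, mt-Ts2, mt-Tn, mt-Ta and mt-Tq rose by 3.90, 3.83, 3.73, 3.72, 3.71, 3.65, 3.63 and 3.18. mt-Tp had 136, 163, 82.6 and 195 CPM at Day 0 and 509, 877, 1343 and 934 at Day 5, again with separate groups, and rose by 4.29 (SE 0.620, edgeR adjusted p = 0.00605). mt-Tt and mt-Ts1, both under 2 CPM in all male mice of these days, had values of 2.83 (SE 1.29, edgeR adjusted p = 0.145) and 3.42 (SE 1.23, edgeR adjusted p = 0.0775) and were not called. Against Day 3 all 17 tRNAs tested rose, with a median of 3.96. mt-Tr, for arginine, was tested between the sexes at Day 5 and in the Day 5 interaction described below, with values of 0.87 in both (edgeR adjusted p = 0.690 and 0.887).

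By group, the 5 mRNAs with nearly all windows shared had a median log2 fold change of 5.82 (5.05 to 6.52) in males from Day 0 to Day 5, and the 7 other mRNAs apart from mt-Atp8 one of 3.92 (3.05 to 4.29), so that the ranges did not overlap. mt-Atp8, with no window shared with an annotated transcript, lay within the range of the former at 5.64. The unannotated stretches of the chromosome 1 copy were not searched for it. The 7 chromosome 1 pseudogenes themselves all rose, with a median of 5.09 against Day 0 and 5.77 against Day 3. The part of reads with several matches in these values was not tested.

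**Figure D4:**
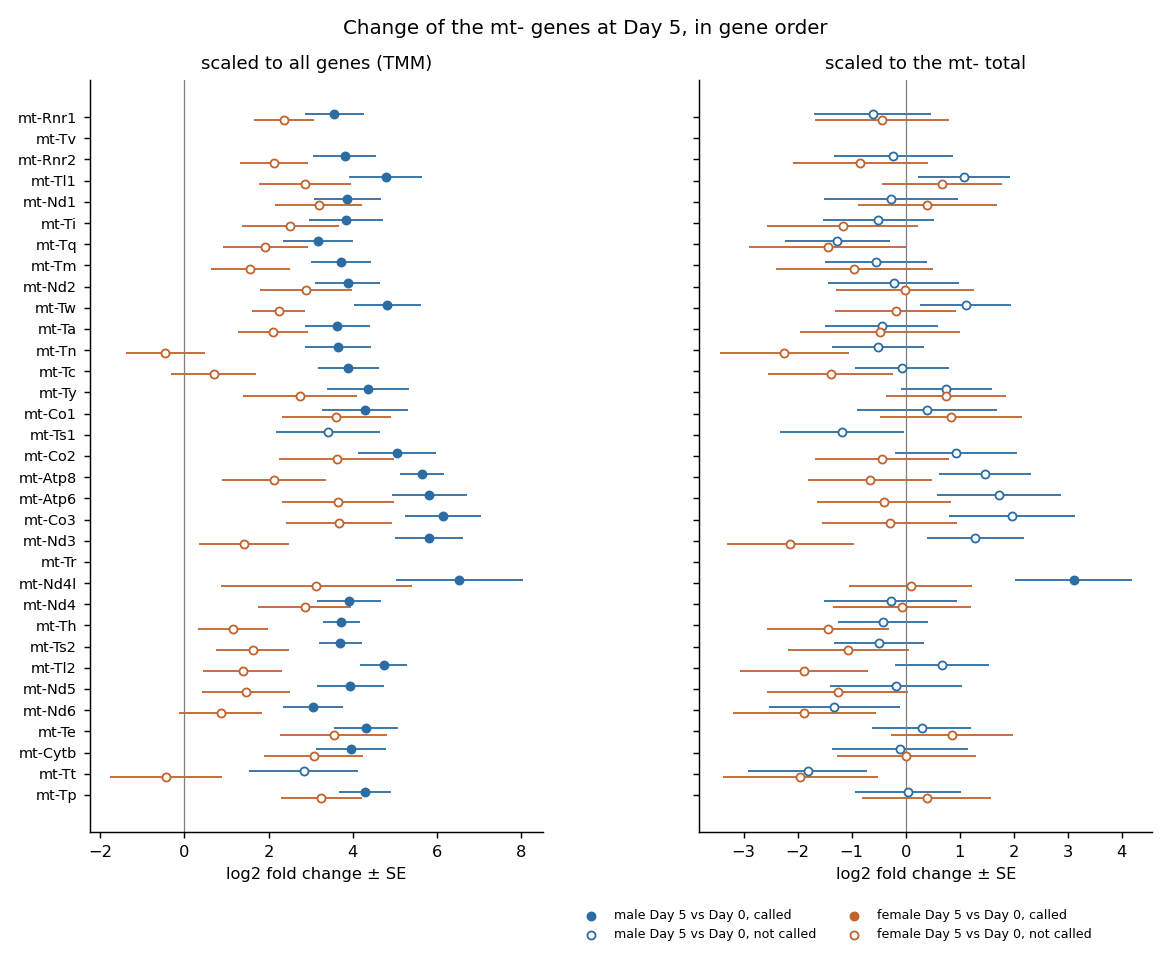
Log2 fold changes (± SE) from Day 0 to Day 5 of the mt- genes in gene order, in males and females, on the TMM scale of all genes (left) and with the mt- total as library size (right). Filled points passed the test; mt-Tv and mt-Tr, without points, were not tested here. On the left all 31 male values are positive and 29 are filled, on the right mt-Nd4l alone is filled, and no female value is filled.

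The same counts were fitted with the mt- total as library size, which asks whether a gene changed its part of the mt- RNA. Of the 31 mt- genes tested in males from Day 0 to Day 5, mt-Nd4l alone rose, with a log2 fold change of 3.11 (SE 1.08, edgeR adjusted p = 0.00474; 4.70 without male Day 0 mouse 4), beside 95.7% of all genes tested that changed on this scale, 9 of them higher and 14314 lower. The 5 mRNAs with shared windows had a median of 1.72 here and the 7 other mRNAs one of -0.22. mt-Co1 stood at 0.40 (SE 1.29, edgeR adjusted p = 0.760) and mt-Nd6 at -1.32 (SE 1.21, edgeR adjusted p = 0.278). Leaving out male Day 5 mouse 1 gave 6 genes, male Day 0 mouse 3 gave 4, and each of Day 0 mice 1 and 2 and Day 5 mouse 2 gave 2. From Day 3 to Day 5, 0 of 32 mt- genes passed the edgeR test on this scale (98.4% of all genes did), and 0 had an unadjusted p under 0.05 (98.5% of all genes did). The SE of mt-Co1 in this fit was 1.29 at a value of -0.08, so that 0 calls on this scale do not show equal parts. Leaving out male Day 5 mouse 1 gave 13 genes, 5 higher and 8 lower, and leaving out Day 3 mouse 4 or Day 5 mouse 3 gave 1. DESeq2 was not run on this scale.

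Over the samples, 4 of the 31 genes tested took a larger part of the mt- counts in every male Day 5 mouse than in every Day 0 mouse (mt-Co3, mt-Atp6, mt-Nd4l and mt-Atp8), and mt-Nd1 and mt-Nd6 took a smaller part. Of all genes tested, 0.0668% were higher in every Day 5 mouse on this scale and 85.4% lower. Against Day 3, 4 of 32 were higher in every mouse (mt-Cytb, mt-Nd4, mt-Co3 and mt-Atp6; 0.141% of all genes) and 12 lower (98.2% of all genes), among them mt-Co1, mt-Nd1, mt-Nd2, mt-Nd5, mt-Nd6 and both rRNAs. mt-Rnr1 held 0.529% ± 0.107 of the mt- total at Day 5 and 0.899% ± 0.170 at Day 3 (SD, n = 4 each, exact permutation test p = 0.0286). For mt-Rnr2 the values were 0.869% ± 0.163 and 1.41% ± 0.224 (SD, n = 4 each, exact permutation test p = 0.0286). This is the smallest two-sided p that an exact permutation test of 4 mice against 4 can give. No share of a single gene passed after adjustment over the 32 such exact tests of mt-Co1, mt-Nd6, mt-Rnr1 and mt-Rnr2 (smallest Benjamini-Hochberg adjusted p = 0.0914), 10 of which had an unadjusted p of 0.0286.

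The part held by mt-Co1 was low and that of mt-Nd6 high in some Day 0 libraries. mt-Co1 held 31.6%, 30.5%, 9.50% and 36.7% of the mt- total in the Day 0 males and 30.1%, 20.5%, 5.76% and 38.0% in the Day 0 females. In the other groups its mean was 35.8% to 43.7%, and every library after Day 0 stood at 33.4% or more. mt-Nd6 held 4.65%, 4.46%, 17.3% and 3.56% in the Day 0 males and 7.92%, 17.0%, 28.3% and 2.55% in the Day 0 females, against 2.25% to 5.53% in the libraries after Day 0. Mouse 3 of either sex and female mouse 2 stood farthest from the later range, and mouse 4 of either sex lay within it. In males mt-Co1 was 37.8% ± 0.727 at Day 3 against 27.1% ± 12.03 at Day 0 (SD, n = 4 each, exact permutation test p = 0.0286), and mt-Nd6 3.38% ± 0.0955 against 7.50% ± 6.57 (SD, n = 4 each, exact permutation test p = 0.0286). At Day 2 and Day 5 in males mt-Co1 was 40.5% ± 6.05 and 35.8% ± 1.63 (SD, n = 4 each, exact permutation test p = 0.0571 and 0.0857 against Day 0), and mt-Nd6 was 3.04% ± 0.583 and 3.00% ± 0.0807 (SD, n = 4 each, exact permutation test p = 0.0571 and 0.0286). In females mt-Co1 was 43.7% ± 4.30, 41.7% ± 2.29 and 42.05% ± 3.06 at Day 2, Day 3 and Day 5 against 23.6% ± 13.9 at Day 0 (SD, n = 4 each, exact permutation test p = 0.0286 for each day), while mt-Nd6 gave exact permutation p values of 0.114, 0.114 and 0.143. None of these passed the adjustment above. Malat1 was low and the summed erythroid markers (Hba-a1, Hba-a2, Hbb-bs, Hbb-bt and Alas2) were high, at 2049 and 2548 CPM of non-mt- counts, in mouse 3 of either sex at Day 0; their part in the result was not tested.

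**Figure D5:**
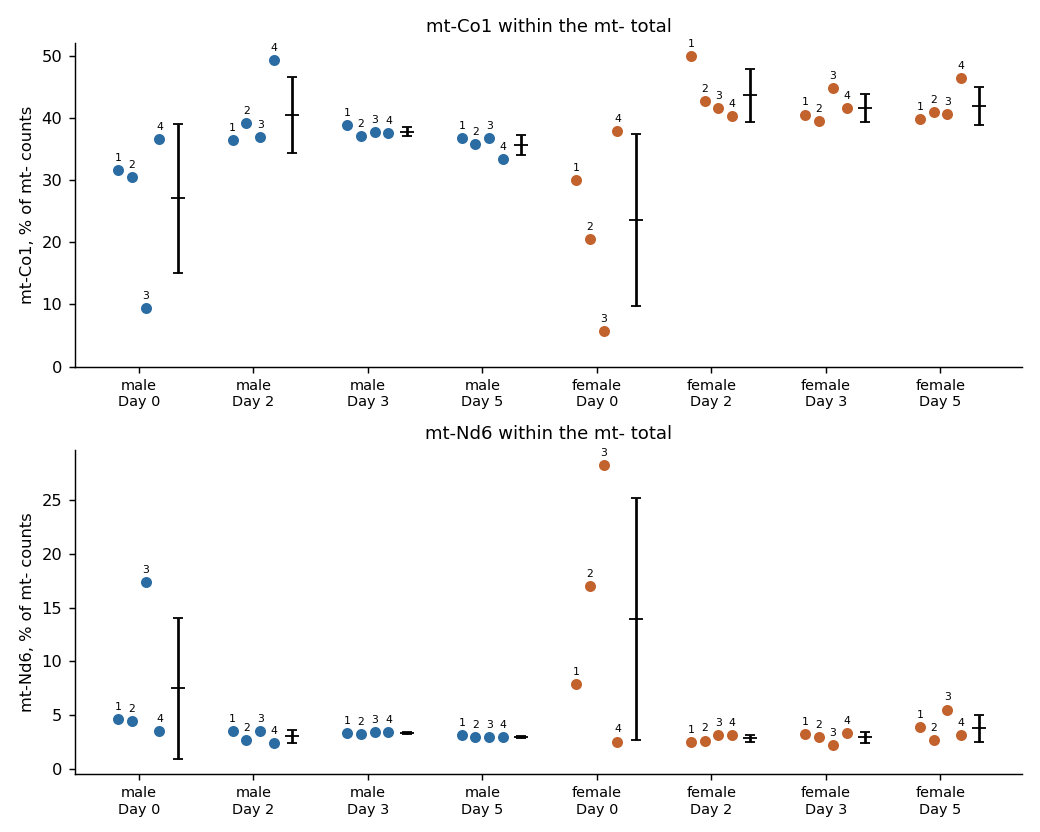
Percentage of the mt- counts held by mt-Co1 (upper panel) and mt-Nd6 (lower panel) in each library (points, numbered by mouse), with the mean and SD of each group of 4 (bars). Male and female Day 0 mouse 3 have the lowest mt-Co1 (9.50% and 5.76%) and the highest mt-Nd6 of their groups (17.3% and 28.3%).

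In females from Day 0 to Day 5, 0 of 30 mt- genes passed the edgeR test (0.228% of all genes did), 15 had an unadjusted p under 0.05 (15.7% of all genes did), and DESeq2 called 2. Their median log2 fold change was 2.30, with 28 of 30 positive. The 4 adrenal markers summed to 564 to 1297 CPM of non-mt- counts in all Day 5 females against 3.66 to 188 at Day 0, and to 1297, 564, 903 and 1208 in mice 1 to 4, so that they were lowest in mouse 2, which had the highest mt- share. The RNAs read as signs of RNA quality summed to 4482, 7175, 3429 and 3731 CPM of non-mt- counts in Day 5 mice 1 to 4 against 653 to 2139 at Day 0, and the erythroid markers to 2259 in mouse 2 against 21.0 to 93.9 in the other Day 5 females, so that both were highest in that mouse. The part of these in the values was not tested. mt-Rnr1 was the 1 gene of 30 higher in every Day 5 female than in every Day 0 female (0.529% of all genes), with 1939, 3767, 2464 and 1067 CPM against 984, 890, 556 and 977 at Day 0. Its log2 fold change was 2.36 (SE 0.706, edgeR adjusted p = 0.194), and 1.12 without female Day 5 mouse 2. mt-Co1 had 19599, 9217, 5835 and 75004 CPM at Day 0 and 125871, 319382, 90350 and 43320 at Day 5, and Day 5 mouse 4 lay below Day 0 mouse 4. Its log2 fold change was 3.61 (SE 1.29, edgeR adjusted p = 0.231), and 1.75 without female Day 5 mouse 2. mt-Nd6 stood at 0.86 (edgeR adjusted p = 0.681), and at -0.49 without female Day 5 mouse 2. Without female Day 0 mouse 4, 2 genes were called. With the mt- total as library size 0 of 30 passed (0.492% of all genes) and 0 had an unadjusted p under 0.05 (7.98%).

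Against Day 3, 0 of 29 mt- genes passed the edgeR test in Day 5 females (0% of all genes did), while 28 had an unadjusted p under 0.05 (11.7% of all genes did) and DESeq2 called 5. All 29 values were positive, with a median of 3.20. mt-Co1 stood at 3.29 (SE 0.982, edgeR adjusted p = 0.408) and mt-Co3 at 4.95 (SE 1.30, edgeR adjusted p = 0.408). Without female Day 5 mouse 2 they were 1.44 and 2.49. mt-Ts2 and mt-Th, tRNAs for serine and histidine, were the 2 genes of 29 higher in every Day 5 female than in every Day 3 female (0.0536% of all genes). With the mt- total as library size 0 of 29 passed (0% of all genes) and 0 had an unadjusted p under 0.05 (4%).

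Early after injection, Day 2 and Day 3 were set against Day 0 within each sex, comparisons that share the Day 0 mice. In males at Day 2, 0 of 28 mt- genes passed the edgeR test (0.716% of all genes), 4 had an unadjusted p under 0.05 (29% of all genes did), and DESeq2 likewise called 0; without male Day 0 mouse 4, 3 were called. At Day 3, mt-Atp8 alone of 29 rose (3.72% of all genes changed), with every Day 3 male above every Day 0 male and a log2 fold change of 1.64 (SE 0.452, edgeR adjusted p = 0.0339). This call was lost without any 1 of male Day 0 mice 1 and 2 and male Day 3 mice 2, 3 and 4, when the count was 0, and 5 genes were called without male Day 0 mouse 4. The medians of the mt- genes were -0.16 at Day 2 and -0.15 at Day 3, and 0.13 and 0.16 with total counts as the scale, which moved the median of all genes to 0.31 and 0.30. At Day 3 all 5 erythroid markers were called lower in males, with a median of -10.1, as were 2 of 4 white fat markers. At Day 2, 0 of 5 erythroid and 0 of 4 white fat markers were called. At each day 1 of 5 hepatocyte markers was called lower and 1 of 4 tested RNAs of the quality list higher. The part of these in the values was not tested.

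With the mt- total as library size, mt-Nd4l rose in males at Day 2 (log2 fold change 2.18, edgeR adjusted p = 0.00512; 3.77 without male Day 0 mouse 4), the 1 gene of 28 beside 3.26% of all genes. At Day 3 mt-Atp8 (1.83, edgeR adjusted p = 0.0297) and mt-Tl1, a tRNA for leucine (1.58, edgeR adjusted p = 0.0297), rose among 29, beside 3.04% of all genes. Leaving out Day 0 mice 2, 3 and 4 singly gave 0, 2 and 3 genes at Day 2. At Day 3, leaving out Day 0 mice 1, 3 and 4 singly gave 0, 7 and 6, and leaving out Day 3 mice 1, 3 and 4 gave 1, 0 and 4.

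In females mt-Nd3, a subunit of complex I, fell at both days. It had 34.8, 21.0, 26.6 and 32.2 CPM at Day 0, 2.21, 4.87, 10.4 and 14.6 at Day 2 and 6.50, 6.997, 7.33 and 9.80 at Day 3. The later mice were all below the Day 0 mice. It was the 1 mt- gene of 29 called at Day 2 (1.41% of all genes), with a log2 fold change of -2.17 (SE 0.465, edgeR adjusted p = 0.0473), and at Day 3 (2.48% of all genes), with -2.27 (SE 0.215, edgeR adjusted p = 0.0311). Its pseudogene Gm28438, which shares 97.0% of its windows, fell at Day 2 by 1.87 on the log2 scale (edgeR adjusted p = 0.0461) and stood at -1.27 at Day 3 (edgeR adjusted p = 0.0707). Without female Day 0 mouse 4, 9 genes were called at Day 2 and 11 at Day 3. The count was 0 at Day 2 without any 1 of female Day 0 mice 1, 2 and 3 or female Day 2 mice 1, 2 and 3, and 0 at Day 3 without any 1 of female Day 0 mice 1 and 3 or female Day 3 mice 1 and 3. Without female Day 0 mice 2 and 3 together, a choice made after the values were seen, mt-Nd3 had log2 fold changes of -2.25 at Day 2 and -2.34 at Day 3 with edgeR adjusted p values of 0.0636 and 0.0887. The medians of the mt- genes were -1.19 at Day 2 and -0.77 at Day 3, and -0.77 and -0.42 with total counts as the scale, under which mt-Nd3 was called at neither day. In the same comparisons all 5 erythroid markers fell, with medians of -6.05 at Day 2 and -5.72 at Day 3, as did both brown fat markers, with medians of -2.17 and -1.97. The summed RNAs read as signs of RNA quality ranged from 3083 to 5056 CPM of non-mt- counts at Day 2 and from 2870 to 4162 at Day 3, against 653 to 2139 at Day 0. The adrenal markers stood at 1729 and 2049 CPM of non-mt- counts in female Day 3 mice 3 and 4, at 10.6 and 25.9 in mice 1 and 2 and at 3.02 to 6.52 in Day 2 females, and 0 of those tested were called. The part of these in the values was not tested.

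With the mt- total as library size, mt-Nd3 fell in females at Day 2 by 2.16 on the log2 scale (edgeR adjusted p = 0.0380; 1.99% of all genes) and at Day 3 by 2.21 (edgeR adjusted p = 0.0102; 2.94% of all genes). mt-Tn and mt-Th, tRNAs for asparagine and histidine, also fell at Day 3, by 1.83 (edgeR adjusted p = 0.0369) and 1.99 (edgeR adjusted p = 0.0428). Of the Day 0 females, mouse 3 had the highest part of mt-Tn, 0.177% of the mt- total against a median of 0.0501% in its group. The value of mt-Tn was -0.86 without that mouse, and without female Day 0 mice 2 and 3 it was 0.090 and that of mt-Th -0.57. The count was 6 at Day 2 and 12 at Day 3 without female Day 0 mouse 4. At Day 2 it was 0 without any 1 of female Day 0 mice 1 and 2 and the 4 female Day 2 mice, and at Day 3 it was 1 without female Day 0 mouse 3, female Day 3 mouse 2 or female Day 3 mouse 4.

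Males and females were compared at each day. At Day 0, 0 of 29 mt- genes passed the edgeR test (0.362% of all genes) and 2 had an unadjusted p under 0.05 (8.04%); at Day 2, 0 of 28 passed (0.813%), 5 had an unadjusted p under 0.05 (15%) and 25 were positive, that is higher in males. DESeq2 called 0 at both days. At Day 3, mt-Atp8 alone of 29 was called (1.93% of all genes), with 3.56, 13.9, 6.44 and 4.99 CPM in males and 2.44, 2.91, 2.39 and 2.43 in females. All males were above all females, and the log2 difference was 1.58 (SE 0.391, edgeR adjusted p = 0.0226), and 1.05 without male Day 3 mouse 2. The count was 0 without any 1 of female Day 3 mice 1, 3 and 4 and male Day 3 mice 2 and 3, and 2 without female Day 3 mouse 2. Without a limit on the fold, 10 mt- genes were higher in males at Day 3 at an adjusted p under 0.05 (10.6% of all genes were), and 28 of 29 values were positive. Among them mt-Nd5 differed by 0.70 (edgeR adjusted p = 0.00556), mt-Nd2 by 0.59 (edgeR adjusted p = 0.00672) and mt-Nd1 by 0.38 (edgeR adjusted p = 0.0380), and mt-Te and mt-Ty were among the tRNAs. By the same rule 2 of 4 tested RNAs of the quality list were higher in males at Day 3, 3 of 4 white fat markers were lower, and 1 hepatocyte marker was higher and 2 were lower. Of 8 kidney markers 1 was higher and 2 were lower, and of 5 tested leukocyte markers 1 was higher. Of the 3 adrenal markers tested 0 were called, with a median of -5.83. Their part in the difference was not tested.

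At Day 5, 0 of 33 mt- genes passed the edgeR test between the sexes (0.236% of all genes), 8 had an unadjusted p under 0.05 (20.3%) and DESeq2 called 5. All 33 values were higher in males, with a median of 1.79. Leaving out female mouse 2 gave 6 genes and leaving out male mouse 1 gave 3. The difference of the sexes in their change from Day 0 was tested as an interaction. It passed for 0 of 29 mt- genes at Day 2 (0% of all genes; 3 with an unadjusted p under 0.05, 4.23% of all genes; 1 by DESeq2), for 0 of 30 at Day 3 (0.0114%; 6 with an unadjusted p under 0.05, 7.11%; 0 by DESeq2) and for 0 of 33 at Day 5 (0.231%; 9 with an unadjusted p under 0.05, 15.2%; 3 by DESeq2). At Day 5 all 33 values were positive, meaning a larger male change, with a median of 2.10. The Day 5 interaction passed for 4 genes when female Day 5 mouse 2 was left out and for 1 when male Day 5 mouse 1 was. A larger change in males than in females at Day 5 was thus not shown by the edgeR test.

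The nuclear genes that act on these RNAs were measured beside them. Of 15 genes for transcription and replication of mitochondrial DNA, 21 tested genes for processing and decay of its RNA and 6 nuclear regulators of mitochondrial genes, 0 passed both limits of the edgeR test in any comparison between days, where 0% to 9.64% of all genes did. At an adjusted p under 0.05 without a limit on the fold, 4 of the 15 and 4 of the 21 were lower at Day 5 than at Day 0 in males and 0 of each were higher, beside 10.2% of all genes tested that were lower and 8.98% that were higher. In the group of transcription and replication these were Tefm, an elongation factor (-1.01, edgeR adjusted p = 0.0475), Tfam, which packs mitochondrial DNA and starts its transcription (-0.76, SE 0.208, edgeR adjusted p = 0.0325), Top1mt, a topoisomerase (-1.09, edgeR adjusted p = 0.0140), and Twnk, the replicative helicase (-0.86, edgeR adjusted p = 0.0337). Polrmt, the RNA polymerase, stood at -0.29 (edgeR adjusted p = 0.400).

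In the group of RNA processing and decay, Fastkd2, Grsf1, Mto1 and Tbrg4 were lower at Day 5, by 1.20, 0.74, 0.75 and 0.58 on the log2 scale. Lrpprc, which stabilises mitochondrial mRNAs, stood at -0.60 against Day 0 (edgeR adjusted p = 0.106) and at -0.71 against Day 3 (SE 0.205, edgeR adjusted p = 0.0252). Elac2, which cuts the 3' ends of the tRNAs, stood at -0.47 against Day 3 (edgeR adjusted p = 0.0201), and Pnpt1, a part of the RNA degradation complex, at -0.12 against Day 0 (edgeR adjusted p = 0.703). Of the regulators, Ppargc1a, a coactivator of mitochondrial biogenesis, stood at -0.13 against Day 0 (edgeR adjusted p = 0.766). Against Day 3, 2 processing genes, Fastk and Rexo2, were higher, by 0.51 and 0.29, and 4 were lower (20.9% and 17.1% of all genes). In that comparison 3 of the 15 transcription and replication genes, Polg, Top1mt and Twnk, and 1 of the 6 regulators, Gabpa, were lower as well. Between Day 0 and Day 3 in males, 4 of the 21 and 2 of the 15 were lower (13.1% of all genes), among them Fastk at -0.59 and Rexo2 at -0.68, and in females 1 of the 21 was (4.28%). Between the sexes at Day 3, 3 of the 15, 1 of the 21 and 1 of the 6 were higher in males by this rule and 0 were lower. Of all 16673 genes tested there, 1769 were higher and 1777 lower.

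Markers of other cells and tissues were measured in the same male Day 5 libraries and are given as CPM of non-mt- counts and summed over each list. The 8 kidney markers ranged from 3634 to 9458 against 8320 to 12432 at Day 0. Of them Slc34a1, the phosphate carrier of the proximal tubule, had 2949, 723, 396 and 273 in male Day 5 mice 1 to 4, and Lrp2, an endocytic receptor of the same cells, 1224, 227, 118 and 68.0, so that both were lowest in the 3 libraries with the highest mt- share. Aqp2, the water channel of the collecting duct, went the other way, with 1061, 1970, 2211 and 1969 against 389 to 687 at Day 0. By the edgeR test and both limits, Slc34a1 alone of the 8 was lower at Day 5 than at Day 0 and 0 were higher, and against Day 3 Slc34a1 and Cubn were lower and Aqp2 was higher. The 5 erythroid markers ranged from 322 to 8531 at Day 5, from 572 to 2049 at Day 0 and from 1.14 to 3.23 at Day 3. The 6 leukocyte markers ranged from 66.8 to 491 against 40.6 to 125 at Day 0, the 4 white fat markers from 291 to 936 against 74.98 to 752, the 2 brown fat markers from 72.7 to 457 against 33.1 to 411 and the 4 adrenal markers from 31.6 to 167 against 0.696 to 15.6. The 5 hepatocyte markers ranged from 21.4 to 70.1 against 110 to 380, and the 5 skeletal muscle markers from 3.09 to 5.03 against 1.11 to 3.55, with Myh4 at 0 in both groups. By the edgeR test and both limits, 1 of 5 erythroid, 2 of 5 tested leukocyte and 3 of 3 tested adrenal markers were higher at Day 5 than at Day 0, 1 of 5 hepatocyte markers was lower, and 0 of the white fat, brown fat and tested skeletal muscle markers were called. Against Day 3, 5 of 5 erythroid, 3 of 5 leukocyte, 4 of 4 white fat, 2 of 2 brown fat and 1 of 3 adrenal markers were higher, and 1 of 5 hepatocyte markers was lower. The list of 8 RNAs read as signs of RNA quality, among them Malat1 and Lars2, ranged from 5095 to 8678 in male Day 5 mice against 523 to 1827 at Day 0, 3759 to 4813 at Day 2 and 4102 to 5325 at Day 3, with Rmrp, Rpph1, Gm42418 and AY036118 at 0 in the Day 5 mice. The 4 members of it that were tested had a median log2 fold change of 1.79 at Day 5 against Day 0 and of -0.09 against Day 3, with 2 and 1 of them called higher, the latter Lars2 by 1.55. The part of these in the rise of the mt- genes was not tested.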

How the data were processed

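Kidney RNA of 32 mice (8 groups of 4, by sex and day) was sequenced as 150-base paired-end reads. The authors deposited unnormalised counts for each gene, from reads aligned to GRCm38 per the methods and counted with HTSeq per the labels, which also list DESeq2 and mm39; the coordinates of all 37 mt- genes match a GENCODE annotation of GRCm38. Library preparation beyond total RNA, the counting options for strand and multiple matches, and versions are not given in the sources used here. The authors also deposited FPKM, which divide each count by gene length and 1 effective library size per library. The mt- genes, the lists and the tests were chosen with earlier results of these data known.

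The quasi-likelihood test of edgeR 4.0.16 (R 4.3.3; TMM, filterByExpr, robust) was run on the whole table of 54532 genes, each comparison on its own groups. Calls needed an adjusted p (Benjamini-Hochberg) below 0.05 together with a log2 fold change beyond 1.5 in either direction; with the mt- total as library size (no TMM), at an adjusted p under 0.05 alone. Shares of mt-Co1, mt-Nd6, mt-Rnr1 and mt-Rnr2 were compared by two-sided exact permutation tests. Alternatives were DESeq2 1.42.0, its size factors in edgeR, total counts, scaling without mt- genes, other filters, 1 fit over 8 groups, the mouse number as a block, a log2 limit of 1, the share of summed FPKM, and each mouse left out. All members are accounted for: values are given for mRNAs and rRNAs and for tRNAs tested in at least 1 comparison, and nuclear lists are given as counts with the genes that changed. On simulated counts with 200 genes changed by a log2 of 3, 176 (88%) were called in male Day 3 against Day 0, with 3 false calls among 15965 genes. With the mt- total as library size 176 were called, with 7 false calls. No mt- gene was changed in the simulation, so that it does not bear on a joint rise of the mt- genes. A gene of the kidney marker list is not reported here. Shared windows were searched with Python 3.11.15. P-values rest on 4 mice per group and set a difference between groups against the spread between these libraries. Sequences were read from the GENCODE transcripts of GRCm38.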

Additional observations from a re-analysis of the deposited data

Results flagged for a closer look

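Shares were checked for 8 measures in each of the 8 groups of 4 mice, 64 checks over the same mice. In 5 of them a mouse had a gap to the nearest other, divided by the range of the group, above Dixon's 95% critical value, where chance alone gives about 1 in 20. The mRNA and rRNA shares are parts of 1 total, so that the pair in female Day 2 mouse 4 is not independent. The mt- share of all counts of male Day 5 mouse 1, at 42.5%, stood below the other 3 mice, and this is the library whose Xist counts go against its label. In female Day 2 mouse 4 the mRNAs held 97.7% of the mt- total, above the other 3 mice, and the rRNAs 2.04%, below them. In female Day 2 mouse 1 the tRNAs held 0.496% of the mt- total, above the other 3. In male Day 0 mouse 3 mt-Nd6 held 17.3% of the mt- total, above the other 3, and that library also had the lowest mt-Co1 share and the lowest Malat1 level of its group.

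The tRNA share of the mt- total lay on opposite sides of the Day 0 mean in the sexes at Day 3. Every Day 3 male lay above the Day 0 mean of males, by 0.127 percentage points on average, and every Day 3 female lay below the Day 0 mean of females, by -0.0434 points. The Day 3 females (0.311% to 0.391%) lay within the range of the Day 0 females (0.237% to 0.561%), and the difference between the sexes was not tested.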

How the results depend on the processing

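The rise of the mt- genes in Day 5 males kept its direction and stayed within 1.5 times of the reported count, against Day 0 and against Day 3, under every alternative run. The share of all counts held by the mt- genes moved by less than 1 SD under 64 settings that left out a mouse and 24 others. The few calls at Day 2 and Day 3 did change. For males at Day 3 (reported 1), the count was 0 with the mouse number as a replicate block and 2 with a log2 limit of 1. For females at Day 2 (reported 1), it was 0 with total counts, 5 with DESeq2, 4 with no filter, 3 with at least 10 counts in every library, 5 in 1 fit over all 8 groups, 0 with the replicate block and 0 without female Day 0 mice 2 and 3. For females at Day 3 (reported 1), it was 0 with total counts, 4 with DESeq2, 4 with no filter, 3 with at least 10 counts, 5 in the fit over 8 groups, 0 with the replicate block, 2 with a log2 limit of 1 and 0 without female Day 0 mice 2 and 3. In Day 5 females (reported 0), total counts gave 2 against Day 0 and 7 against Day 3, DESeq2 2 and 5, and the fit over 8 groups 15 against Day 0. Between the sexes at Day 3 (reported 1), the fit over 8 groups gave 0, the replicate block 0 and a log2 limit of 1 gave 2; at Day 5 (reported 0), DESeq2 gave 5 and the fit over 8 groups 5. For the interaction, DESeq2 gave 1 at Day 2 and 3 at Day 5, and the fit over 8 groups 5 at Day 5. With the mt- total as library size, at least 10 counts gave 4 for males at Day 3 and 0 for females at Day 2, and the replicate block gave 5, 2 and 1 for males at Day 3, Day 5 and Day 5 against Day 3, and 5 and 1 for females at Day 2 and Day 3. Leaving out female Day 0 mice 2 and 3 gave 0 and 1 for females at Day 2 and Day 3 there. The cause of these changes was not tested.

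Leaving out single mice gave these ranges of counts. Against Day 0 they were 0 to 3, 0 to 5 and 22 to 32 for males at Day 2, Day 3 and Day 5, and 0 to 9, 0 to 11 and 0 to 2 for females; against Day 3 they were 32 to 33 in males and 0 in females. Between the sexes they were 0 at Day 0 and Day 2, 0 to 2 at Day 3 and 0 to 6 at Day 5, and for the interaction 0, 0 and 0 to 4. With the mt- total as library size they were 0 to 3, 0 to 7 and 1 to 6 for males and 0 to 6, 1 to 12 and 0 for females against Day 0, and 0 to 13 for males and 0 for females against Day 3.

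For the mt- share of all counts, leaving out single mice gave -2.95 to 2.89 points for males at Day 2, -2.80 to 3.04 for males at Day 3, -2.98 to 2.10 for females at Day 2 and -2.23 to 2.85 for females at Day 3, none of them tested, and the share of summed FPKM gave -4.32 for females at Day 2. Of the shares of mt-Rnr1 and mt-Rnr2 within the mt- total, none of which passed after adjustment, those of mt-Rnr1 in males at Day 2 and in females at Day 2 and Day 3, and those of mt-Rnr2 in males at Day 5 and in females at Day 2, turned sign against Day 0 when single mice were left out. Signs turned for mt-Nd6 in females from Day 0 to Day 5 (-0.49 without female Day 5 mouse 2, and up to 2.03 when other single mice were left out) and for mt-Tn within the mt- total in females at Day 3 (0.090 without female Day 0 mice 2 and 3). Among values of single genes on the scale of all genes, 684 of those that left out a mouse and 809 others kept their call, 58 and 17 lost it and 1 and 10 gained it. Within the mt- total 33 of those that left out a mouse and 29 others kept their call, and 31 and 6 lost it. Same-numbered mice of different groups did not deviate together: the correlation of their deviations was -0.278 to 0.252 over 48 pairs, 7 of them over 0.1, so the number is not taken as a pairing.

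The limits are few mice, a Day 0 group in which 1 to 2 libraries per sex differ in make-up, and in Day 5 males as few as 3780528 counts for all other genes. Mouse 4 of either sex also had the highest mt- share of its Day 0 group, at 24.0% in the male and 19.7% in the female. tRNA genes are shorter than a read, and reads that match a nuclear copy cannot be assigned from these files.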

Other observations

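The Day 0 libraries that stood apart in mt-Co1 and mt-Nd6 also did so in other transcripts of the mitochondrial genome. mt-Nd5, the longest mRNA of the mitochondrial genome, held 16.0% of the mt- total in male Day 0 mouse 3, 14.2% in female Day 0 mouse 2 and 32.3% in female Day 0 mouse 3, against 5.73% to 11.5% in the other 29 libraries. mt-Te held 0.00843% to 0.0171% in male Day 0 mouse 3 and female Day 0 mice 1, 2 and 3, against 0.0274% to 0.0846% elsewhere. mt-Tn and mt-Tc, tRNAs for asparagine and cysteine on the - strand, held 0.177% and 0.135% in female Day 0 mouse 3.

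Outside the mt- genes, 7 of 7 pseudogenes of the chromosome 1 copy were called higher in Day 5 males, both against Day 0 and against Day 3 (3.83% and 6.39% of all genes were higher). In females 2 of 7 fell at Day 2, namely Gm28438 and Gm28661, and Gm28661 alone fell at Day 3 (1.41% and 2.48% of all genes changed).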
